A study of Mus musculus with 6 samples.

Results

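The 34 genes described here are Trp53, the gene of the transcription factor p53, and 33 genes known as its targets or feedback partners. They were taken from a list of established p53 target genes, and all 34 were among the 16656 genes tested. Poly(A) RNA was sequenced from CD11b+Gr1+ splenocytes, myeloid cells sorted from the spleens of tumor-bearing mice that carry the Mll-AF9 leukemia fusion. The 3 Rpl22+/+ libraries and the 3 Rpl22-/- libraries all came from Mll-AF9 animals, so no library stands for normal myeloid cells. Their labels differ by the loss of Rpl22, a large-subunit ribosomal protein. Nothing in the labels ties a library to an animal, and the study's text gives a single mouse identifier for each genotype. The p-values therefore measure the spread between libraries, which may be technical. If each genotype came from a single mouse, loss of Rpl22 cannot be told apart from other differences between the animals or their leukemias.

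p53 is held low in unstressed cells by the ubiquitin ligase Mdm2 and is released from it after DNA damage or when ribosome assembly is disturbed, as free ribosomal proteins can bind Mdm2. It then switches on genes for growth arrest, DNA repair and cell death, together with its own inhibitors Mdm2 and Ppm1d. In blood progenitors this response sets how readily damaged cells stop dividing or die. p53 is regulated largely as a protein, and protein was not measured here.

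p53 binds a 10-base half-site, usually as a pair of half-sites with a short spacer, and the half-site consensus reads the same on both strands. RefSeq promoter windows (250 bases before to 50 after an annotated start, GRCm38.p6) were found for 27 of the 34 genes and searched for the p53 half-site consensus. Zmat3, Ddb2, Xpc, Rrm2b, Tnfrsf10b, Perp and Trp53inp1 had no window. At least 1 half-site stood in the windows of 13 of the 27 genes, against 9.6% of 27025 genes with a window. By window rather than by gene, 14 of 36 held 1, against 8.36% of 32851 windows. A pair of half-sites with a spacer of at most 13 bases stood in a window of Cdkn1a, which encodes the cell cycle inhibitor p21, and in 20 of all 27025 genes. That window is shown whole because it holds the only such pair among the 27 genes, with both half-sites in capitals, at -73 and -51 bases from its start. It lies 2790 bases before the other Cdkn1a window, which held no match.
Cdkn1a (chr17:29090729-29091028, GRCm38.p6, plus strand): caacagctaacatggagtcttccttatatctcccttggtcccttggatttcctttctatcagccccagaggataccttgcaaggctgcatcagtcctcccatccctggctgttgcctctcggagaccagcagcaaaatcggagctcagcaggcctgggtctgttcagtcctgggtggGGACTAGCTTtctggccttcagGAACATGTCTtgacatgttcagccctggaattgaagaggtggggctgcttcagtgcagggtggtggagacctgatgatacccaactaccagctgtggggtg

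The matches of the other 12 genes are shown with 10 bases on either side (GRCm38.p6), on the strand of the gene and with the half-site in capitals, so that they can be set beside the expression values. Both Rps27l matches came from the same window.
Trp53 (chr11:69580274-69580303, plus strand): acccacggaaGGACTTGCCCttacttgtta
Mdm2 (chr10:117710925-117710954, minus strand): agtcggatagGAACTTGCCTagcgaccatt
Ppm1d (chr11:85311112-85311141, plus strand): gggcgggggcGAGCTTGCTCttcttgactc
Ccng1 (chr11:40755452-40755481, minus strand): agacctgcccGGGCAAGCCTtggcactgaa
Gtse1 (chr15:85859945-85859974, plus strand): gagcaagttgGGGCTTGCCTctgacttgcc
Gadd45a (chr6:67037428-67037457, minus strand): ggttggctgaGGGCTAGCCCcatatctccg
Ckap2 (chr8:22186003-22186032, minus strand): ctgtgtctgaAGACATGTCCtgacttgtca
Polk (chr13:96519399-96519428, minus strand): catgtagcttGAACTAGCCTcaaacttatt
Aen (chr7:78895927-78895956, plus strand): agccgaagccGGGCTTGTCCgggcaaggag
Ei24 (chr9:36797325-36797354, minus strand): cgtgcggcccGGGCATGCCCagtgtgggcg
Sesn1 (chr10:41887256-41887285, plus strand): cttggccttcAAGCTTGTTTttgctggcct
Rps27l (chr9:66946193-66946222, plus strand): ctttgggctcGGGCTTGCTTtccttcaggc
Rps27l (chr9:66946296-66946325, plus strand): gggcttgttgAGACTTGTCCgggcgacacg

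**Figure D1:**
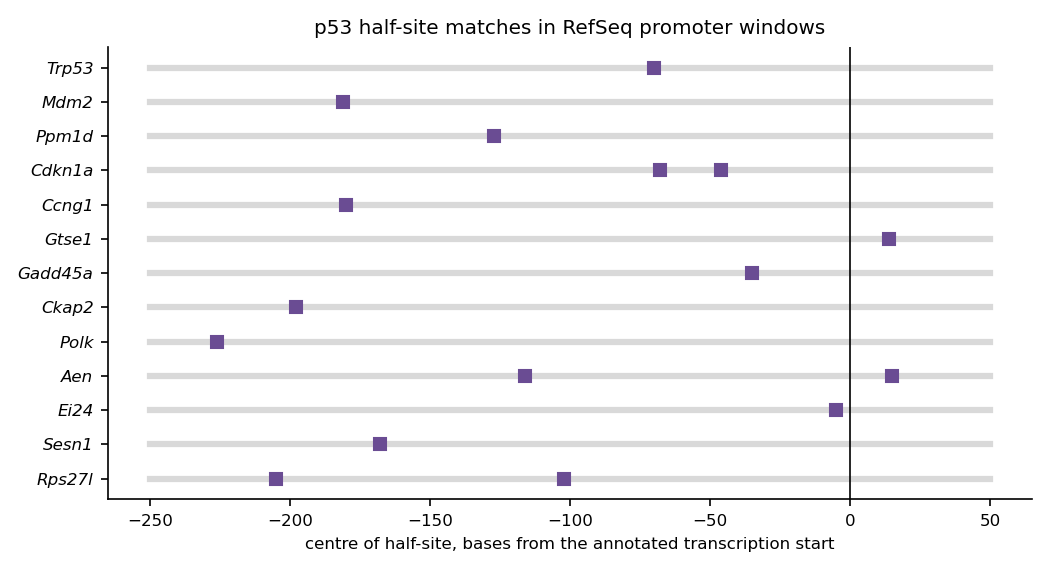
Position of each p53 half-site match (squares) in the RefSeq promoter windows (grey bars) of the 13 genes that held 1, in bases from the annotated start. The pair in Cdkn1a, at -73 and -51, is the only pair with a spacer of at most 13 bases, and the 2 Aen squares are the same site seen from 2 annotated starts.

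Depth ran from 35828500 to 102866127 estimated reads per library. Rpl22 itself, the gene of the labels, stood at 148, 235 and 152 CPM (reads scaled to a common library total by TMM) in Rpl22+/+ replicates 1, 2 and 3 and at 58.3, 89.9 and 73.5 CPM in Rpl22-/- replicates 1, 2 and 3, so it was lower in every library labelled Rpl22-/- but not at 0 (log2 fold change -1.27 ± 0.25 SE, adjusted p = 0.0106). Below, values of 6 libraries are given in that same order. One library stood apart: log2 CPM of Rpl22+/+ replicate 2 correlated across genes at 0.926 and 0.934 with the other Rpl22+/+ libraries, which correlated at 0.992 with each other. Among the 34 genes, Mdm2, Ccng1, Polk, Ddb2, Rrm2b and Trp53inp1 were over 1.5 times lower in it than in both other Rpl22+/+ libraries, and Trp53, Phlda3 and Rps27l over 1.5 times higher. Across chromosomes 4 and 9 the median log2 fold change was 0.44 and 0.41, against 0.03 elsewhere. Plk3, Trp53inp1 and Sesn2 lie on chromosome 4 and Ei24, Sesn3 and Rps27l on chromosome 9.

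Most of the target genes did not pass the test, and those that passed went in both directions. Trp53 itself did not pass. Of the 34 genes, 7 were higher in Rpl22-/- libraries (Xpc, Eda2r, Tnfrsf10b, Aen, Pidd1, Phlda3 and Rps27l), 4 were lower (Apaf1, Tigar, Ephx1 and Cd82) and 23 did not pass at an adjusted p under 0.05. The 11 that passed make 32.4% of the list, against 27.6% of all genes tested. Of all genes, 13.7% were higher and 13.8% lower. Of the 34 genes 6 passed with a change over 2-fold (17.6%), against 17.5% of all genes. The genotypes did not overlap for 15 of the 34 genes (44.1%), against 46.1% of all genes. The median log2 fold change was 0.09 over the 34 genes and 0.07 over all genes, and 20 of the 34 values were above 0. The share of the list that passed was thus near that of all genes. In bulk RNA, fewer cells of a type and less RNA per cell cannot be told apart. Without a composition factor in the scaling, higher genes made 61.5% of all genes that passed in place of 49.8%, while the counts for the 34 genes stayed at 7 and 4.

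**Figure D2:**
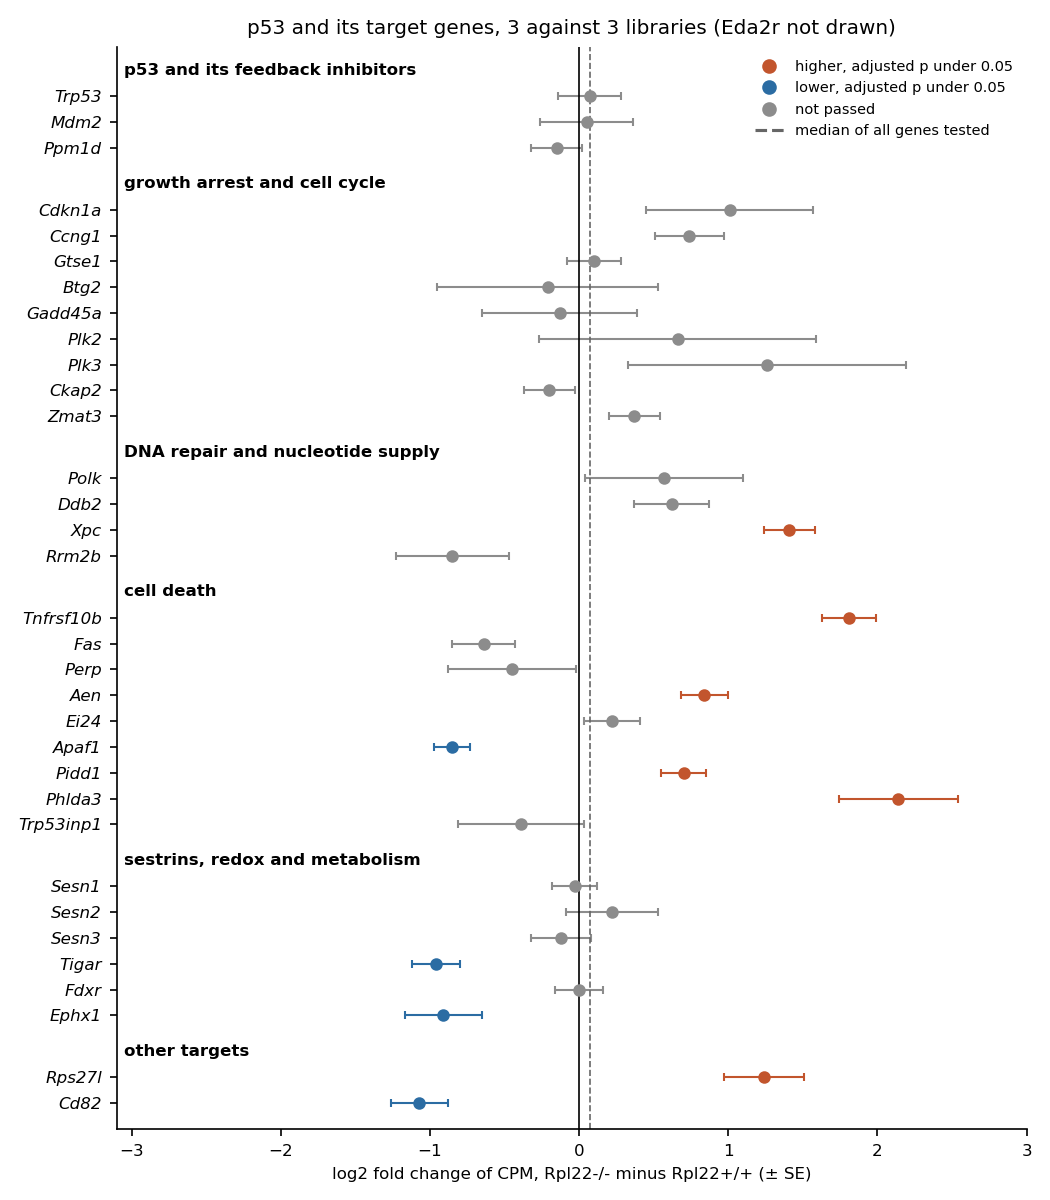
Log2 fold change of CPM (Rpl22-/- minus Rpl22+/+, points, with bars of 1 SE, 3 libraries a genotype) for 33 of the 34 genes, grouped by role. Red and blue points passed at an adjusted p under 0.05, grey points did not, and the dashed line is the median of all genes, 0.07. Most cell death genes that passed lie to the right, no growth arrest gene passed, and Eda2r is left out because it had no reads in Rpl22+/+ libraries.

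The count moved with single libraries, as did that of all genes. Without Rpl22+/+ replicate 2, 9 of the 34 genes were higher and 6 lower: Trp53 and Ccng1 joined the higher genes, Rrm2b, Fas and Trp53inp1 joined the lower ones, and Ephx1 was lost. That is 44.1% of the 34 genes, and 40% of all genes passed in the same fit. Without Rpl22+/+ replicate 3, 4 genes were higher and 4 lower, and without Rpl22+/+ replicate 1 these numbers were 5 and 3, which is 23.5% of the list each time, against 15.1% and 17.9% of all genes. Pairing the libraries by replicate number gave 9 higher and 6 lower genes, with Ccng1, Ddb2, Rrm2b and Fas added (44.1%, against 33.8% of all genes). Xpc, Tnfrsf10b, Apaf1, Phlda3, Tigar and Cd82 passed under every alternative run.

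**Figure D3:**
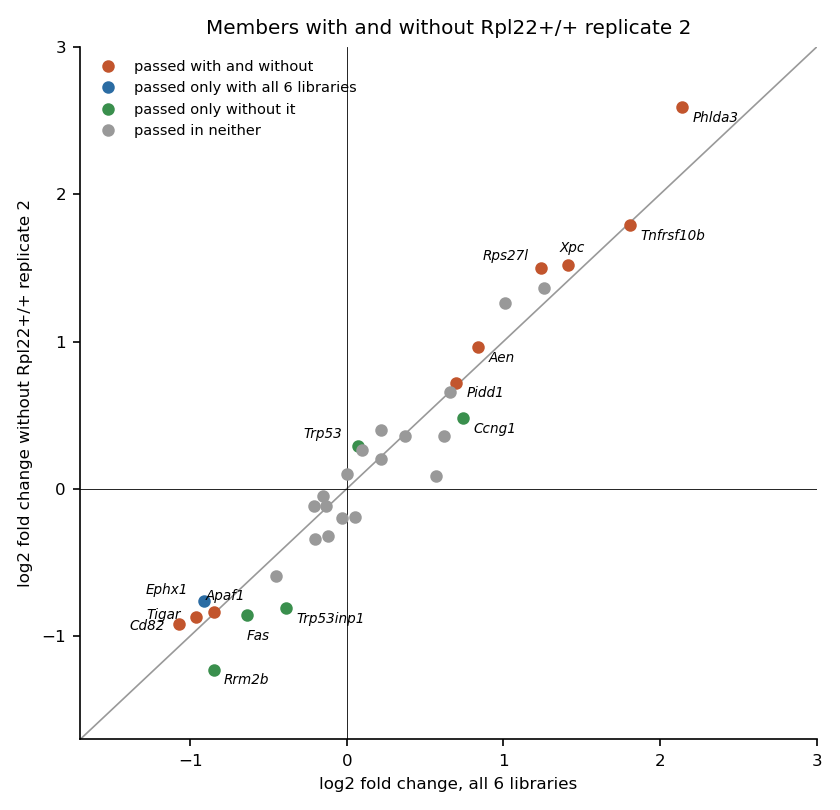
Log2 fold change of each gene from all 6 libraries (horizontal) and from the 5 left without Rpl22+/+ replicate 2 (vertical), with the line of equal values. Eda2r is not drawn. Green genes passed only without that library, and the blue gene, Ephx1, passed only with it.

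Neither p53 nor its feedback inhibitors differed past the threshold. Trp53 stood at 78.8, 126 and 79.8 CPM in Rpl22+/+ libraries and at 100, 98 and 102 CPM in Rpl22-/- libraries. The Rpl22-/- values lay inside the range of the Rpl22+/+ libraries, which replicate 2 set (log2 fold change 0.07 ± 0.21 SE, adjusted p = 0.835). Without that library the difference was 0.29 (adjusted p = 0.0475). Mdm2, the ligase that marks p53 for degradation and the main readout of its feedback loop, stood at 107, 67.4 and 107 CPM against 92.2, 64.7 and 135 CPM. Replicate 2 was the lowest library in both genotypes, and the groups overlapped (log2 fold change 0.05 ± 0.31 SE, adjusted p = 0.93). Ppm1d, the phosphatase that turns the damage signal off, stood at 21.6, 29.3 and 23.3 CPM against 19.5, 24.4 and 23.1 CPM, with overlapping groups (log2 fold change -0.15 ± 0.17 SE, adjusted p = 0.588).

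Of the 9 growth arrest and cell cycle genes 0 passed, against 27.6% of all genes, and their median log2 fold change was 0.37, against 0.07 over all genes. Cdkn1a stood at 43.2, 91.9 and 65.2 CPM in Rpl22+/+ libraries and at 52.4, 105 and 245 CPM in Rpl22-/- libraries. Only Rpl22-/- replicates 2 and 3 lay above all Rpl22+/+ libraries (log2 fold change 1.01 ± 0.56 SE, adjusted p = 0.238). Without Rpl22-/- replicate 3 the value was 0.24 (adjusted p = 0.763). Ccng1, which encodes cyclin G1, stood at 93.9, 54.3 and 92.9 CPM against 124, 129 and 150 CPM. Every Rpl22-/- library was above every Rpl22+/+ library, and the gene missed the threshold by little (log2 fold change 0.74 ± 0.23 SE, adjusted p = 0.055, and 0.0257 with libraries paired by number). Zmat3, an RNA-binding zinc finger protein, stood at 7.85, 7.51 and 5.96 CPM against 9.36, 8.64 and 9.48 CPM, again without overlap (log2 fold change 0.37 ± 0.17 SE, adjusted p = 0.158). Gtse1, whose product counters p53 in G2, and Ckap2, a spindle protein, overlapped between genotypes, with log2 fold changes of 0.10 ± 0.18 and -0.20 ± 0.17 SE.

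Among the 34 genes, the widest spread between libraries of a genotype was found in this group. Plk3, a Polo-like kinase, stood at 42.5, 69.7 and 62.6 CPM in Rpl22+/+ libraries and at 19.5, 56.1 and 342 CPM in Rpl22-/- libraries. Its relative Plk2 stood at 10.9, 13.6 and 14.3 CPM against 1.68, 13.2 and 46 CPM. Btg2, an antiproliferative factor, stood at 191, 287 and 249 CPM against 45.2, 125 and 459 CPM. In all 3 genes Rpl22-/- replicate 1 lay below and replicate 3 above the whole Rpl22+/+ range. Gadd45a, a DNA damage response protein, showed the same order, with 67.5, 84 and 84.4 CPM against 26.5, 57.8 and 132 CPM. The fitted differences had errors to match, at 1.26 ± 0.93 SE for Plk3, 0.66 ± 0.93 for Plk2, -0.21 ± 0.74 for Btg2 and -0.13 ± 0.52 for Gadd45a on the log2 scale. Their sign rested on single libraries: without Rpl22-/- replicate 3, Plk3 stood at -0.62 and Plk2 at -0.78, and without Rpl22-/- replicate 1, Btg2 and Gadd45a both stood at 0.27.

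Cdkn1a, Btg2, Gadd45a, Plk2 and Plk3 were the 5 of the 34 genes with over 4-fold between the lowest and the highest Rpl22-/- library. In all 5 the highest was replicate 3 and the lowest replicate 1. Of 13202 genes with a mean of at least 50 reads, 2.54% spanned over 4-fold among Rpl22-/- libraries and 7.6% among Rpl22+/+ libraries. Immediate early genes, which are transcribed within minutes of a stimulus such as a growth factor, had the same highest and lowest Rpl22-/- library in 11 of 11 genes of a list holding Fos, Jun and Egr1, and 9 of the 11 spanned over 4-fold. Their summed level was 4607, 7520 and 5079 CPM in Rpl22+/+ libraries and 3013, 7906 and 15081 CPM in Rpl22-/- libraries, and 0 of the 11 passed between genotypes. The part of this in the p53 targets was not tested. The list of immediate early genes was chosen with earlier results of these data known, so its counts only describe it. How many of all genes had this order of libraries was not counted.

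**Figure D4:**
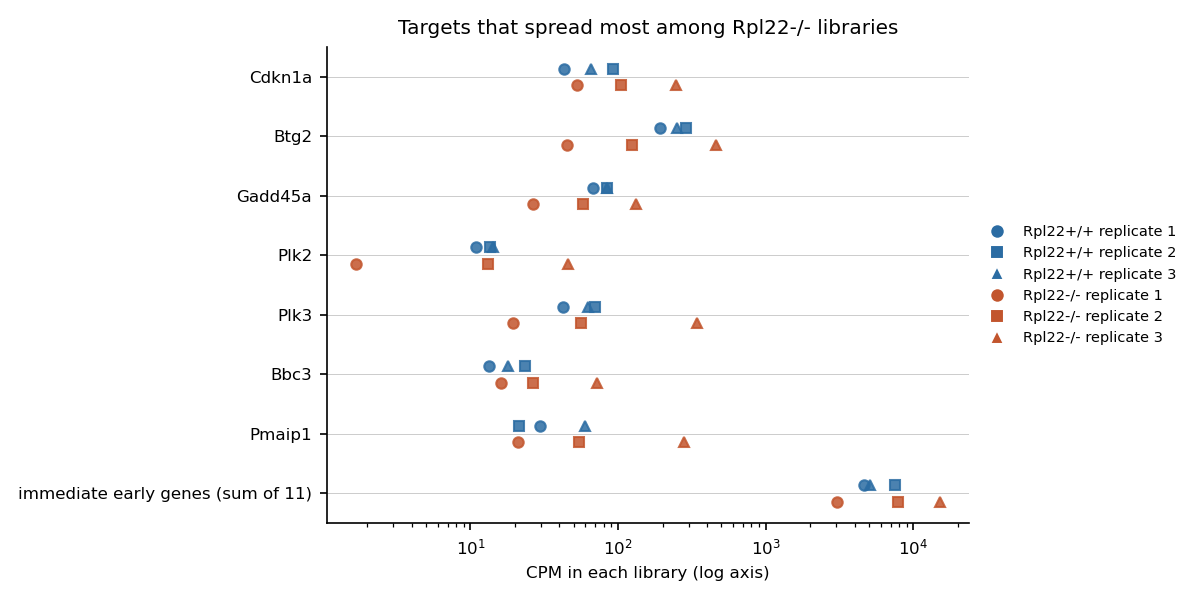
CPM in each library (log axis, blue Rpl22+/+ and red Rpl22-/-, with a marker shape per replicate number) of the 5 target genes with over 4-fold among Rpl22-/- libraries, of Bbc3 and Pmaip1, and of the sum of 11 immediate early genes. In each row Rpl22-/- replicate 3 is the highest of the 6 libraries.

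Of the 4 genes for DNA repair and nucleotide supply 1, Xpc, passed (25%, against 27.6% of all genes). Xpc, which recognizes distorted DNA at the start of global nucleotide excision repair, stood at 72.7, 95 and 69.5 CPM in Rpl22+/+ libraries and at 203, 236 and 191 CPM in Rpl22-/- libraries. The lowest Rpl22-/- library, at 191 CPM, stood far above the highest Rpl22+/+ library, at 95 CPM (log2 fold change 1.41 ± 0.17 SE, adjusted p = 0.00186). Ddb2, the other damage sensor of that repair path, stood at 14.5, 8.56 and 14.1 CPM against 23.3, 16.2 and 17.6 CPM. It did not overlap either, but passed only with pairing (log2 fold change 0.62 ± 0.25 SE, adjusted p = 0.121, and 0.0321 with libraries paired by number). Rrm2b, the ribonucleotide reductase subunit that p53 controls, stood at 29.7, 11.5 and 28.4 CPM against 15.5, 9.36 and 13.9 CPM. The low value of Rpl22+/+ replicate 2 made the groups overlap (log2 fold change -0.85 ± 0.38 SE, adjusted p = 0.154, and 0.0269 with libraries paired by number). Polk, a translesion DNA polymerase, stood at 8.93, 2.28 and 9.45 CPM against 13.1, 6.68 and 10.9 CPM, with overlapping groups (log2 fold change 0.57 ± 0.53 SE, adjusted p = 0.489). Leaving out Rpl22+/+ replicate 2 gave 0.09 and leaving out Rpl22+/+ replicate 3 gave 0.86. Polk passed only with a GC correction and pairing together (0.65, adjusted p = 0.0288).

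Of the 10 cell death genes 5 were higher, 1 was lower and 4 did not pass. These 6 make 60.0% of a group of 10 genes, against 27.6% of all genes, and the difference between the group and other genes was not tested. Those that were higher include 2 receptors of low level. Tnfrsf10b, the mouse receptor for the death ligand TRAIL, stood at 1.34, 1.47 and 1.43 CPM in Rpl22+/+ libraries and at 4.76, 4.92 and 5.19 CPM in Rpl22-/- libraries. The replicates of each genotype lay close together, and the log2 fold change was 1.81 ± 0.18 SE (adjusted p = 0.000834). Eda2r, the receptor for the A2 form of ectodysplasin, had 0 reads in all Rpl22+/+ libraries and 0.294, 0.529 and 0.406 CPM in Rpl22-/- libraries. With 107 reads in all it was at least 32.1-fold higher, taking 3 reads over the Rpl22+/+ group as the floor. It entered the test only through the Rpl22-/- libraries, so its call is no support. Of the other 33 genes 6 were higher, and the 60.0% of the cell death group includes Eda2r. Intervals and floors here cover counting error only.

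Phlda3, which holds back the kinase Akt at the membrane, stood at 1.01, 2.32 and 1.08 CPM in Rpl22+/+ libraries and at 4.6, 7.34 and 7.51 CPM in Rpl22-/- libraries (log2 fold change 2.14 ± 0.40 SE, adjusted p = 0.00892). Aen, a nuclease that degrades DNA in apoptosis, stood at 23.8, 33.3 and 24.8 CPM against 50.2, 49 and 47.5 CPM (log2 fold change 0.84 ± 0.16 SE, adjusted p = 0.0105). The groups of both genes were well apart. Pidd1, the death-domain protein of the PIDDosome, stood at 22.4, 26.1 and 22.8 CPM against 42.8, 33.5 and 39.1 CPM (log2 fold change 0.70 ± 0.15 SE, adjusted p = 0.0146). Aen lost its call without Rpl22+/+ replicate 3 (adjusted p = 0.0565). Pidd1 lost it without replicate 1 or replicate 3 of either genotype, with adjusted p from 0.0578 to 0.0727. Its coding transcript with reads, Pidd1-201, overlapped between genotypes, at 4.91, 10.8 and 5.1 CPM against 5.69, 7.22 and 7.5 CPM, so the higher gene total was mostly made of its other transcripts.

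Apaf1 went the other way. This scaffold of the apoptosome, on which caspase-9 is activated, stood at 169, 195 and 182 CPM in Rpl22+/+ libraries and at 105, 100 and 98.5 CPM in Rpl22-/- libraries. No library of one genotype came near the other, and the log2 fold change was -0.85 ± 0.12 SE (adjusted p = 0.00344). Fas, the receptor of Fas ligand, stood at 21, 13 and 18.3 CPM against 12.5, 11.1 and 9.9 CPM. Its groups were separate but the difference missed the threshold (log2 fold change -0.64 ± 0.21 SE, adjusted p = 0.0631, and 0.0419 with libraries paired by number). Trp53inp1, which binds p53 in nuclear bodies, stood at 146, 45.8 and 127 CPM against 92, 62.1 and 88.9 CPM, with a log2 fold change of -0.39 ± 0.42 SE, and at -0.81 (adjusted p = 0.0106) without Rpl22+/+ replicate 2 and -0.51 (adjusted p = 0.0152) with a GC correction and pairing. Perp, a membrane protein, was near the limit of detection, with 49 reads in Rpl22+/+ and 42 in Rpl22-/- libraries. Per unit of depth the ratio was 0.771 (95% interval 0.498 to 1.19). Ei24 stood at 0.22 ± 0.19 SE on the log2 scale, but its summed level was 0.123 of that in the authors' gene table, so most of its reads were not counted here.

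**Figure D5:**
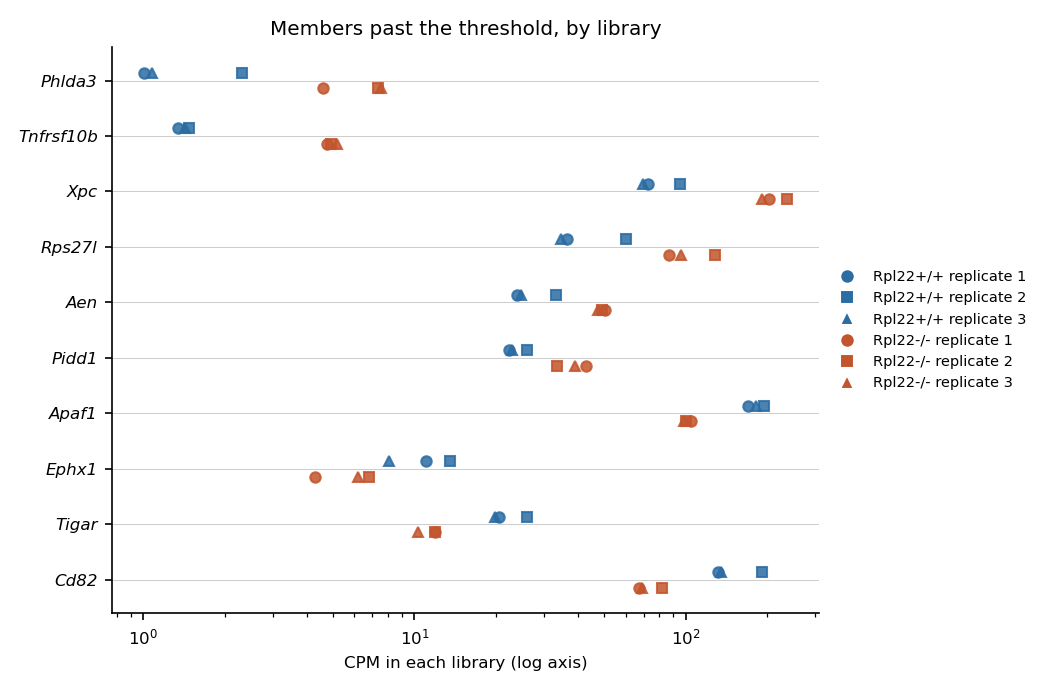
CPM in each library (log axis, blue Rpl22+/+ and red Rpl22-/-, with a marker shape per replicate number) of 10 of the 11 target genes that passed. Eda2r, with 0 reads in Rpl22+/+ libraries, is left out. In each row the genotypes are separate.

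Among the 6 genes of redox defence and metabolism, 2 were lower and none was higher (33.3%, against 27.6% of all genes). Tigar, a phosphatase that lowers flux through glycolysis, stood at 20.5, 26 and 19.8 CPM in Rpl22+/+ libraries and at 11.9, 11.9 and 10.3 CPM in Rpl22-/- libraries. Every Rpl22-/- value was well under the lowest Rpl22+/+ value (log2 fold change -0.96 ± 0.16 SE, adjusted p = 0.00658). Ephx1, the microsomal epoxide hydrolase, stood at 11, 13.5 and 8.07 CPM against 4.28, 6.8 and 6.21 CPM. The groups were separate by a small margin (log2 fold change -0.91 ± 0.26 SE, adjusted p = 0.0428), and the call was lost in 8 of 18 alternatives. The sestrins, which restrain the growth kinase mTORC1, overlapped between genotypes, with log2 fold changes of -0.03 ± 0.15 SE for Sesn1, 0.22 ± 0.31 for Sesn2 and -0.12 ± 0.20 for Sesn3. Fdxr, the mitochondrial ferredoxin reductase, was at 0.00 ± 0.16 SE.

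The other 2 targets both passed, in opposite directions (100%, against 27.6% of all genes, in a group of only 2). Rps27l, a ribosomal protein paralog, stood at 36.4, 60.3 and 34.8 CPM in Rpl22+/+ libraries and at 86.9, 128 and 96.4 CPM in Rpl22-/- libraries. The groups were separate (log2 fold change 1.24 ± 0.27 SE, adjusted p = 0.0149), and the call was lost without Rpl22+/+ replicate 1 (adjusted p = 0.0555) or replicate 3 (adjusted p = 0.062). Reads that fit both Rps27l and its close paralog Rps27 were divided by the quantification, so its level is less certain. Cd82, a tetraspanin of the cell surface, stood at 131, 191 and 135 CPM against 67.5, 81.7 and 68.9 CPM (log2 fold change -1.07 ± 0.19 SE, adjusted p = 0.00743).

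Per transcript length the targets spanned a wide range of levels. On the TPM scale Rps27l had the highest mean, 160 ± 25.5 in Rpl22+/+ and 404 ± 57.8 in Rpl22-/- libraries (SD, n = 3). Cd82 was at 112 ± 6.75 and 58.6 ± 2.86 TPM, Trp53 at 67.9 ± 9.16 and 77 ± 5.47 TPM, and Xpc at 26.8 ± 1.19 and 77.2 ± 5.51 TPM. Xpc and Trp53 were therefore at levels within their spread of each other in Rpl22-/- libraries but not in Rpl22+/+ libraries. The receptors were low, Tnfrsf10b at 0.601 ± 0.0981 and 2.22 ± 0.192 TPM, while Eda2r was listed at 0 TPM in Rpl22+/+ and at 0.159 ± 0.0414 TPM in Rpl22-/- libraries.

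Set beside the promoter matches, 11 of the 13 genes with a half-site did not pass. Of all 27 genes with a window 18 did not pass, so most genes of either kind did not. Of the 7 higher genes 5 had a window, and Aen and Rps27l held a half-site. All 4 lower genes had a window and 0 held a half-site, against 9.6% of all genes with a window. These groups are small, and differences between them were not tested. Of the 23 genes that did not pass, 18 had a window and 11 of these held a half-site, Trp53, Mdm2 and Cdkn1a among them. The CHR element, a site through which p21 and the DREAM complex repress cell cycle genes, was searched as TTTGAA on both strands (TTCAAA on the other strand) and stood in the windows of Ckap2, Fas, Aen and Fdxr, 4 of 27 genes against 20.2% of all genes. A match is a description of letters in these windows, and sites farther away were not searched.

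The make-up of transcripts was also read, given as shares of a gene's reads. These shares were described and not tested. Cdkn1a-201, the leading p21 transcript, held 89.7%, 91.2% and 91.9% of the gene's reads in Rpl22+/+ and 85.3%, 86.2% and 85.4% in Rpl22-/- libraries. For Cd82 the share of the coding transcript Cd82-202 was 22.2%, 20.4% and 21.7% against 38%, 32.4% and 26.9%. Neither pair of groups overlapped. Both are examples from many transcripts. Other read shares were separate too, as for Aen-201, or overlapped, as for Plk3-201, Plk3-202 and Trp53-203. How many shares were separate over all genes was not counted. The coding transcript Pidd1-201 held 22%, 41.2% and 22.4% of the reads against 13.3%, 21.6% and 19.2%. The retained-intron transcripts, Pidd1-206 and Pidd1-208, held most of the rest.

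The other genes of the pathway were read from 3 lists. Of 25 regulators and cofactors of p53 that were tested, 1 was higher and 5 were lower (24.0%, against 27.6% of all genes). Cdkn2a, which encodes the Mdm2 inhibitor Arf and the cell cycle inhibitor Ink4a from different first exons, stood at 8.16, 15.3 and 8.06 CPM in Rpl22+/+ libraries and at 1.34, 1.57 and 1.18 CPM in Rpl22-/- libraries. It was lower by the largest amount of the list, at -2.94 ± 0.32 SE on the log2 scale (adjusted p = 0.00114). Both transcripts were lower: Cdkn2a-202, with the first exon farther upstream as in Arf, stood at 5.41, 9.42 and 5.47 CPM against 0.965, 0.878 and 0.952 CPM, and Cdkn2a-201, which starts 12461 bases downstream as Ink4a does, at 2.74, 5.84 and 2.58 CPM against 0.378, 0.692 and 0.231 CPM. The locus lies on chromosome 4, whose genes stood higher as a whole.

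Rchy1 and Hipk2 were lower too, the first a ubiquitin ligase for p53 (also called Pirh2) and the second a kinase that activates it, by -0.97 ± 0.12 and -0.73 ± 0.14 SE on the log2 scale (adjusted p = 0.0018 and 0.0102). Ppp1r13l, the p53 inhibitor iASPP, was higher, at 0.97 ± 0.25 SE (adjusted p = 0.0294). The Ppp1r13l call was lost without replicate 1 or replicate 3 of either genotype (adjusted p up to 0.112), and the Hipk2 call without replicate 3 of either genotype and in both fits on log2 TPM (adjusted p up to 0.0759). Mdm4, the partner of Mdm2, stood at 299, 54.6 and 258 CPM against 269, 123 and 176 CPM, with replicate 2 the lowest in both genotypes (log2 fold change -0.11 ± 0.60 SE, adjusted p = 0.923).

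Of 24 further p53 targets tested, 4 were higher and 5 were lower (37.5%, against 27.6% of all genes). Trp53i11, a p53-inducible gene, rose from 20.6, 25.7 and 18 CPM in Rpl22+/+ to 78.6, 73.4 and 75 CPM in Rpl22-/- libraries (log2 fold change 1.82 ± 0.16 SE, adjusted p = 0.000555). Ak1, the cytosolic adenylate kinase, and Psrc1, a microtubule-binding protein, were higher by 2.99 ± 0.37 and 0.91 ± 0.17 SE on the log2 scale (adjusted p = 0.00187 and 0.00841). Zfp365, Pmm1 (a phosphomannomutase) and Thbs1 (the secreted matrix protein thrombospondin-1) were lower, at -1.63 ± 0.31, -1.03 ± 0.23 and -4.61 ± 1.04 SE (adjusted p = 0.00952, 0.0175 and 0.0179). The Pmm1 call was lost without Rpl22-/- replicate 1 (adjusted p = 0.0655) or replicate 3 (adjusted p = 0.0709). The Thbs1 call was lost without Rpl22+/+ replicate 3 (adjusted p = 0.0538) or Rpl22-/- replicate 2 (adjusted p = 0.071), and with libraries left out in turn its value ran from -6.70 (without Rpl22-/- replicate 3) to -4.12. The 3 mitochondrial death effectors did not pass. Bax was separate between genotypes, at 43.3, 72 and 46.3 CPM against 72.6, 92.1 and 80.7 CPM (log2 fold change 0.60 ± 0.22 SE, adjusted p = 0.093, and 0.021 with libraries paired by number). Bbc3, which encodes Puma, and Pmaip1, which encodes Noxa, were highest in Rpl22-/- replicate 3, at 71.6 and 281 CPM. Their log2 fold changes were 1.06 ± 0.54 and 1.69 ± 0.92 SE (adjusted p = 0.2 and 0.228), and 0.23 and 0.04 without that library.

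Among 28 cell cycle genes that the DREAM complex can repress, 2 were lower and none was higher (7.14%, against 13.8% lower and 13.7% higher of all genes). Ccna2, which encodes cyclin A2, was at -0.67 ± 0.14 SE and the centrosome kinase Nek2 at -0.57 ± 0.17 SE on the log2 scale (adjusted p = 0.0129 and 0.0479). The median of the list was -0.11. The Nek2 call was lost in 6 of 18 alternatives and the Ccna2 call without Rpl22-/- replicate 3 (adjusted p = 0.0651).

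The sorted populations also differed between genotypes in other ways. The gate antigen gene Itgam (CD11b) was at 815 CPM or more in every library and lower in Rpl22-/- libraries (log2 fold change -1.02 ± 0.16 SE, adjusted p = 0.00482), and Ly6g, the main antigen of the Gr1 antibody, was lower by -3.49 ± 0.20 SE (adjusted p = 9.7e-05). The Ly6c genes, which that antibody can also detect, did not pass, Ly6c1 at 0.40 ± 0.28 SE (adjusted p = 0.36, and 0.034 with a GC correction and pairing) and Ly6c2 at 0.51 ± 0.25 SE (adjusted p = 0.18, and 0.0347 with libraries paired by number). Of 5 primary granule genes 5 were higher, with a sum of 2389 to 4095 CPM in Rpl22+/+ and 22478 to 27374 CPM in Rpl22-/- libraries. Of 9 genes of the later granules 9 were lower, from 45252 to 61301 CPM down to 12653 to 17284 CPM. Of 7 erythroid markers 6 were higher (84.6 to 128 against 579 to 1152 CPM in sum). All 7 T cell markers were lower (47.1 to 63.8 against 19 to 22.3 CPM), as was 1 of 6 B cell markers, Pax5 (in sum 579 to 731 against 365 to 559 CPM). The Pax5 call (log2 fold change -0.81) was lost in 9 of 17 alternatives, with adjusted p up to 0.0943 (0.0588 with a GC correction and pairing). Of 3 NK cell markers 2, Ncr1 and Klrb1c, were higher (3.33 to 4.12 against 5.43 to 8.19 CPM in sum), and of 4 dendritic cell markers 2, Cd209a and Flt3, were lower (14.3 to 19.7 against 6.31 to 8.91 CPM in sum). The Klrb1c and Cd209a calls were each lost in 5 of 18 alternatives, those that left out any library but Rpl22+/+ replicate 2 (adjusted p up to 0.0982 and 0.0708). Of 4 eosinophil, basophil and mast cell markers 1, Cpa3, was lower, with overlapping sums of 9.43 to 15.1 and 9.86 to 10 CPM. Of 4 stroma and endothelium markers tested 1 passed, Pdgfrb, at 1.04, 1.4 and 1.07 CPM against 0 in all Rpl22-/- libraries. Its level did not match that in the authors' gene table. It entered the test only through the Rpl22+/+ libraries, so its call is no support. The sum of the stroma and endothelium list was higher in Rpl22-/- libraries, at 60.8 to 72.6 against 74.3 to 94.9 CPM. Of the 5 platelet and megakaryocyte markers 3 were tested and 0 passed (3.17 to 5.13 against 3.97 to 4.62 CPM in sum), with Pf4 and Ppbp at or near 0. The part of these differences in the p53 targets was not tested.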

How the data were processed

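Poly(A) RNA of Mll-AF9 CD11b+Gr1+ splenocytes was sequenced in 6 libraries, 3 Rpl22+/+ and 3 Rpl22-/-, grouped by sample title. Per the labels and the study's methods, the authors prepared stranded libraries, ran Trimmomatic and then Salmon. For each library the authors deposited estimated counts and TPM per transcript. TPM is scaled for length and keeps no depth. A gene table the authors deposited holds their DESeq2 comparison, whose fold changes and p-values were not used. The authors made its base mean signal by averaging size-factor scaled counts over the libraries. That signal served here to check that genes were complete, and 33 of the 34 genes lay within 0.8 to 1.25 of it, Ei24 being the exception. Tool versions and the transcript set are not given in the sources used here.

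Gene sums of the estimated counts used GENCODE vM21 to assign transcripts (136036 of 276623 transcripts, carrying 98.0% to 98.1% of reads) and were rounded. The edgeR 4.0.16 quasi-likelihood F test (R 4.3.3, TMM, filterByExpr) had genotype as its only term, and passed means a Benjamini-Hochberg adjusted p under 0.05 over 16656 genes at any size of change. CPM is on TMM-scaled library sizes. Alternatives were DESeq2 1.42.0 (size factors or test), no composition factor, no filter or a mean of at least 50 counts, limma-voom and limma on log2(TPM + 1) or log2(TPM + 0.1) with limma 3.58.1, a replicate block, a GC correction with and without it, each library left out, and omission of chromosomes 4 and 9. For transcript shares, TPM shares were the alternative. Figures were drawn with matplotlib 3.10.9.

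Libraries numbered 1 and those numbered 2 deviated together from their genotype means (r = 0.57 and 0.715 over 13202 genes). Those numbered 3 hardly did (r = 0.129). Unlike numbers ran from -0.657 to 0.43, and Rpl22+/+ replicate 3 was closer to Rpl22-/- replicate 1 (0.43) than to its own number. The pairing comes from the data, as the labels tie the numbers to nothing, and blocked values, with or without the GC correction, are printed where they give or end a call.

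The 34 genes and all lists were chosen with earlier results of these data known. Values per library are given for Trp53, Mdm2, Cdkn1a and up to 4 genes of each role with the smallest p-values, and of each pathway list the 3 smallest p-values in each direction among genes that passed are named, with Mdm4, Cdkn2a, Bax, Bbc3 and Pmaip1 added. Values per library for Btg2, Gadd45a, Plk2, Aen, Pidd1, Fas, Trp53inp1 and Trp53i11 were added after they were seen. Promoter sequences are those of RefSeq (GRCm38.p6), a different build from the GRCm39 of the authors' files, and were matched by symbol.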

Additional observations from a re-analysis of the deposited data

How the results depend on the processing

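The 4 counts (target genes higher and lower, all genes higher and lower) stayed within 1.5 times of 7, 4, 2288 and 2306 except as follows. Scaling without a composition factor raises the median of all genes on the log2 scale from 0.07 to 0.19, and 3543 of all genes were higher. The GC correction gave 7 lower target genes (44.1% of target genes passed, against 37.5% of all genes), and with the replicate block 7 lower target genes, 3895 higher and 3698 lower genes (50%, against 45.6%). Leaving out each library in turn gave 4 to 9 higher and 3 to 6 lower target genes, 1175 to 3540 higher and 1392 to 3311 lower genes. The lowest number of higher target genes came without Rpl22+/+ replicate 3 and the highest without Rpl22+/+ replicate 2. The higher genes of the whole table moved by over 1.5 times without Rpl22+/+ replicates 1, 2 and 3 (1396, 3540 and 1175) and without Rpl22-/- replicates 1 and 3 (1509 and 1369), and the lower genes without Rpl22+/+ replicate 3 (1447) and Rpl22-/- replicates 1 and 3 (1531 and 1392). The replicate block gave 9 higher and 6 lower target genes and 2943 and 2688 of all genes, and of the 67 genes recomputed it changed no call other than those of Ccng1, Ddb2, Rrm2b, Fas, Bax and Ly6c2. The cause of these changes was not tested.

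The sign turned only for genes that did not pass. For Plk2 it was -0.22 with the replicate block, -0.14 with the GC correction and block, -0.06 with limma-voom, -0.38 with log2(TPM + 0.1) and -0.17 with log2(TPM + 1). For Mdm4 the same 5 alternatives gave 0.15, 0.10, 0.17, 0.26 and 0.24. Sesn1 turned to 0.07 with log2(TPM + 0.1), 0.06 with log2(TPM + 1), 0.08 without a composition factor and 0.01 without chromosomes 4 and 9. The other turns came from leaving out single libraries, with ranges on the log2 scale of -0.05 to 0.29 for Trp53, -0.25 to 0.24 for Mdm2, -0.01 to 0.26 for Gtse1, -1.51 to 0.27 for Btg2, -0.89 to 0.27 for Gadd45a, -0.78 to 1.20 for Plk2, -0.62 to 1.78 for Plk3, -0.62 to 0.27 for Mdm4, -0.20 to 0.05 for Sesn1, -0.11 to 0.43 for Sesn2 and -0.32 to 0.05 for Sesn3. Over these 67 genes and the alternatives, 1067 values kept direction and side of the threshold, 58 lost a call, 36 gained 1 and 32 turned sign. Low depth limits Eda2r and Perp.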

Other observations

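Genes of the integrated stress response, which shares Sesn2 with the p53 pathway and is driven by the transcription factor Atf4, were split as well. Of 11 tested, 2 were higher and 2 lower in Rpl22-/- libraries (36.4%, against 27.6% of all genes). Asns, the asparagine synthetase, stood at 50.3, 69.2 and 48.8 CPM in Rpl22+/+ and at 17.8, 17.5 and 15.9 CPM in Rpl22-/- libraries (log2 fold change -1.72 ± 0.18 SE, adjusted p = 0.000896). Slc7a11, the cystine transporter subunit, stood at 12.6, 7.33 and 12.4 CPM against 2.17, 2.35 and 2.39 CPM (log2 fold change -2.23 ± 0.25 SE, adjusted p = 0.00132). Ddit4, an inhibitor of mTORC1, and Chac1, a glutathione-degrading enzyme, were higher, by 2.24 ± 0.51 and 0.99 ± 0.25 SE on the log2 scale (adjusted p = 0.0194 and 0.0288). Ddit4 spanned 4.05-fold among Rpl22-/- libraries, at 22.8, 44.1 and 92 CPM, with the same lowest and highest library as the immediate early genes, and stood at 1.58 (adjusted p = 0.0417) without Rpl22-/- replicate 3. Its call was lost without Rpl22+/+ replicate 1 or 3 (adjusted p = 0.0655 and 0.07), and that of Chac1 without those libraries or Rpl22-/- replicate 3 (adjusted p up to 0.104). Atf4 itself stood at 0.26 ± 0.27 SE (adjusted p = 0.535). These 4 genes were picked as those of the list that passed.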
